A study of Mus musculus with 32 samples.

Results

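Mural cells, the pericytes and smooth muscle cells of vessel walls, were picked by their own transcripts from dissociated median eminence (ME) of the mouse. A cell was taken when Rgs5, Acta2, Tagln and Myh11 together gave at least 5 unique molecular identifiers (UMIs, each a captured transcript counted once). It was left out when it held 10 or more UMIs of Dcn, 5 or more of Itm2a, 5 or more of Agt, or 20 or more of Mal, Ermn and Opalin together. The rule took 97 of 5982 cells, or 1.62% (95% Clopper-Pearson interval 1.32% to 1.97%). The data went against the name for 24 of the 97. Of these, 23 carried the genes of ependymocytes and 1 carried astrocyte and tanycyte genes, which left 73 mural cells (1.22% of all cells, 0.958% to 1.53%).

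C57B/L6 mice aged 40 to 47 days were either fasted overnight (16 h) or refed for 1 h with normal chow once that fast had ended. The ME of 5 mice was pooled for each condition, which makes each condition 1 pool without a replicate. Tissue was dissociated with papain, and DraQ5+ DAPI- cells were sorted and split over 2 droplet-based libraries per condition. Each cell barcode ended in a number from 1 to 4 that no source used here tied to a library or to fasting or refeeding. All cells were therefore treated as 1 sample, fasted and refed cells were not compared, and no test was run.

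Mural cells wrap the endothelial tube. Smooth muscle cells ring arteries, arterioles and veins and contract through actin and myosin, whereas pericytes sit on capillaries inside the basement membrane, and the cells between them grade into one another. The ME is a circumventricular organ whose capillaries are fenestrated and take up the releasing hormones of the hypothalamus. Rgs5 encodes a regulator of G protein signaling found in pericytes and in many smooth muscle cells. Kcnj8 and Abcc9 encode the pore and the regulatory subunit of the vascular ATP-sensitive potassium channel, a pericyte marker in the brain, and Acta2 and Myh11 encode the actin and myosin heavy chain of smooth muscle.

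Within the 97 cells, those with at least 2 UMIs of Kcnj8 and Abcc9 and under 5 of Acta2 and Myh11 were called Kcnj8/Abcc9 cells, and those with at least 5 UMIs of Acta2 and Myh11 and under 2 of Kcnj8 and Abcc9 were called Acta2/Myh11 cells. These limits gave 64 Acta2/Myh11 cells, 22 Kcnj8/Abcc9 cells, 0 cells with both and 11 with neither. Without the 24 cells of other types the numbers were 47, 21, 0 and 5. Each of the last 5 cells held exactly 1 UMI of Kcnj8 or Abcc9, 8 to 21 UMIs of Rgs5 and 38 to 70 UMIs of pericyte genes, so that they missed the Kcnj8/Abcc9 class by 1 UMI. The UMIs that are compared below also chose the cells and their classes, so all levels, counts and folds are descriptions. Intervals are at the 95% level and cover counting error only.

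Near the limit of the rule, 13 cells held 4 UMIs of the 4 genes and 8 cells held 5. Ependymocyte genes marked 9 of the 13 and 6 of the 8, and at least 15 UMIs of pericyte genes were found in 2 of each. The limits on other genes removed 7 cells, 5 through Itm2a, with 5 to 8 UMIs of the 4 rule genes, and 2 through the oligodendrocyte genes, with 100 and 115. No barcode sequence of a chosen cell occurred under a second number, although 21 sequences in the matrix did.

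The 23 ependymocyte-like cells were set apart by 9 ependymocyte genes, of which each cell held 45 to 134 UMIs (median 95). The 47 Acta2/Myh11 cells held 0 to 11 and the 21 Kcnj8/Abcc9 cells 0 to 9. Ependymocytes are the ciliated cells that line the ventricle, and Foxj1, the transcription factor of motile cilia, had a UMI in 20 of the 23 cells but in 1 of the 73 mural cells. Ccdc153, a cilium gene, was read at 2658 UMIs per 1000000 UMIs (CPM) in the ependymocyte-like cells and had 0 UMIs in the mural cells. Both genes are among the 9 that set the cells apart, so their values describe that choice. These cells had entered through Acta2 (1 to 33 UMIs per cell, median 7) and Tagln (0 to 11, median 1). Rgs5, Myh11, Kcnj8, Abcc9, Vtn, Notch3, Pdgfrb and Higd1b had 0 UMIs in all 23 cells, which held 135417 UMIs, so that a level of up to 22.2 CPM is allowed. In the plot of ependymocyte genes they share no range with the mural cells, which the limits of 30 and 20 UMIs on these genes had fixed.

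**Figure D1:**
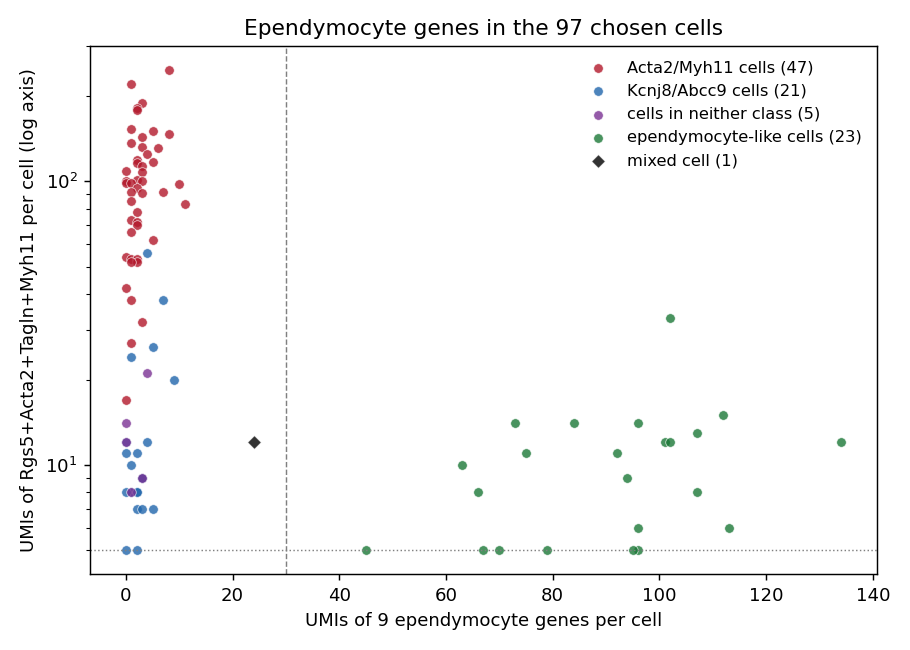
UMIs of 9 ependymocyte genes per cell (horizontal axis) against UMIs of the 4 rule genes per cell (vertical log axis) for the 97 chosen cells, each point 1 cell; the dashed line marks 30 UMIs and the dotted line the rule's 5. The 23 ependymocyte-like cells lie at 45 to 134 on the horizontal axis, the mixed cell at 24 and the 73 mural cells at 11 or below.

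The remaining cell of another type held 7293 UMIs, with 77 of astrocyte genes, 55 of tanycyte genes, 57 of pericyte genes and 5 of Kcnj8 and Abcc9. Genes of other cell types were read in the 73 mural cells without those that the rule used. Of 19 endothelial genes, 9 had no UMI (Cdh5, Tek, Tie1, Kdr, Egfl7, Ly6a, Sox17, Vwf and Erg), and the list summed to 378 CPM in Acta2/Myh11 cells and 1430.0 CPM in Kcnj8/Abcc9 cells, against 27696 CPM in 79 endothelial cells, taken by at least 5 UMIs of Itm2a and at least 5 of Cldn5, Ly6c1, Flt1 and Pecam1 together. Of 19 fibroblast genes, 5 had no UMI (Lum, Col5a1, Slc13a4, Mfap5 and Gjb2), and the list summed to 508 CPM and 1688 CPM, against 27714 CPM in 277 cells with at least 10 UMIs of Dcn. Of 7 macrophage genes 3 had no UMI (Mrc1, Pf4 and F13a1), and the list summed to 35.5 CPM and 0 CPM in the 2 classes and 291 CPM in the cells that the rule did not choose. Of 11 microglia genes 1 had none (Tmem119), and the list summed to 248 CPM and 563 CPM, against 3722 CPM.

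Other lists also differed between the classes. Tanycytes are glia of the ventricle floor. Of 10 tanycyte genes 2 had no UMI in the mural cells, and the list summed to 1584 CPM in Acta2/Myh11 cells and 141 CPM in Kcnj8/Abcc9 cells, against 1313 CPM in the cells that the rule did not choose. It gave 0 to 14 UMIs per cell in the first class (median 5) and 0 to 2 in the second (median 0). Vim, the intermediate filament vimentin, made up 251 of the 268 UMIs in Acta2/Myh11 cells, at 1484 CPM against 46.9 CPM in Kcnj8/Abcc9 cells. Its level was 162 CPM in the cells that the rule did not choose and 520 CPM in endothelial cells. The difference between the classes in this list was thus mainly that of Vim. Of 9 pars tuberalis genes 5 had no UMI, and the list summed to 822 CPM and 188 CPM, of which Cpe, carboxypeptidase E, made up 751 CPM and 93.8 CPM. Of 9 oligodendrocyte genes each had a UMI, and the list summed to 963 CPM and 563 CPM, against 19410.3 CPM in the cells that the rule did not choose. The ependymocyte list was higher in Kcnj8/Abcc9 cells, at 751 CPM and 1313 CPM, against 1446 CPM in the cells that the rule did not choose. Rarres2 made up 520 CPM and 1055 CPM of it, and 6 of the 9 genes had no UMI in Kcnj8/Abcc9 cells. The part of these other transcripts in the split was not tested.

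The 73 mural cells fell along 2 arms when 22 contractile genes were set against 19 pericyte genes, both lists without the rule genes. Kcnj8 and Abcc9, which define a class, are in the pericyte list. Contractile genes gave 43 to 430 UMIs per cell in the 47 Acta2/Myh11 cells (median 204) and 11 to 49 in the 21 Kcnj8/Abcc9 cells (median 18). Pericyte genes gave 3 to 40 UMIs in the first (median 14) and 25 to 165 in the second (median 69). Per 1000 UMIs of the cell, the contractile genes ranged from 22.4 to 92.8 and from 6.15 to 19.5, and did not overlap between the classes. The pericyte genes ranged from 0.892 to 20.8 and from 10.6 to 56.6, and did overlap. The 5 cells in neither class lay at 16.6 to 40.6 for pericyte genes and 8.81 to 24.9 for contractile genes.

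**Figure D2:**
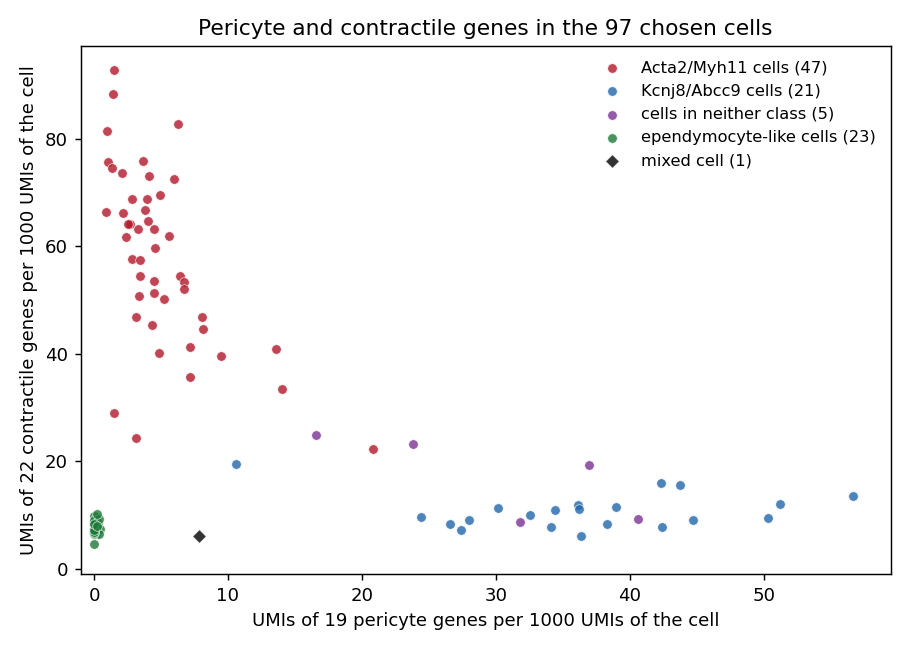
UMIs of 19 pericyte genes (horizontal axis) and of 22 contractile genes (vertical axis) per 1000 UMIs of each of the 97 chosen cells, each point 1 cell. Acta2/Myh11 cells spread up the vertical axis from 22.4 to 92.8, Kcnj8/Abcc9 cells along the horizontal axis from 10.6 to 56.6, and the ependymocyte-like cells sit near the origin.

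The RefSeq promoter table (GRCm38.p6) was read because the contractile genes are textbook targets of serum response factor, which binds the CArG box. Sequences are shown for Acta2, Kcnj8 and Abcc9, which define the classes, and for Myl9, a contractile gene found in every mural cell. The table held no window for Myh11 or Tagln. The 250 bases before each RefSeq start were searched on both strands, with the CC and GG ends fixed and at most 1 letter of the A/T core between them departing, and the bases shown lie outside the exons of the GENCODE vM21 annotation, except for Acta2. Both Acta2 boxes lie inside its annotated first exon, so 10 bases on either side of each are shown. Capitals mark CArG boxes in the sequences below, which run 5′ to 3′ on the strand of the gene.
Acta2, chr19:34255438-34255467, minus strand, box 84 bases before the start: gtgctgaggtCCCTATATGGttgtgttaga
Acta2, chr19:34255388-34255417, minus strand, box 34 bases before the start: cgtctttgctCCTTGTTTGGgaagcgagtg
Myl9, chr2:156775214-156775419, plus strand: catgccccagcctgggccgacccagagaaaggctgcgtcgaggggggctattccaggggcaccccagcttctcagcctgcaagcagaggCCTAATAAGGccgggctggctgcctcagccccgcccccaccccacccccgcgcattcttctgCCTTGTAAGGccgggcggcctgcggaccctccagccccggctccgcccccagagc
Kcnj8, chr6:142571615-142571864, minus strand: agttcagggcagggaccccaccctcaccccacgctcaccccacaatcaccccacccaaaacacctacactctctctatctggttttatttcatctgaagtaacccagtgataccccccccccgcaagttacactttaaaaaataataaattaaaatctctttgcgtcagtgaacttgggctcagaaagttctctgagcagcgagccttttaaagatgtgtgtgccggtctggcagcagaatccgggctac
Abcc9, chr6:142702316-142702524, minus strand: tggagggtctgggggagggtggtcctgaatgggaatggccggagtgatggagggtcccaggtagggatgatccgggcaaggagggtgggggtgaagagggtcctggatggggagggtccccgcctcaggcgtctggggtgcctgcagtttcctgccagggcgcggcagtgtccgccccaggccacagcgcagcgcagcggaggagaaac

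Myl9 held 1 exact box 161 bases before its start and 1 with a departing letter at 99 bases, and both Acta2 boxes had 1 departing letter. No match of that kind was found in the windows of Kcnj8 and Abcc9. Of the 32851 windows in the table, 8.59% held a box with at most 1 departure and 1.47% an exact one. Of the contractile list, 21 of 25 genes were in the table and 5 held a box (Acta2, Crip1, Myl6, Myl9 and Pcp4l1), and of the pericyte list 15 of 20 were and 2 did (Ggt1 and Gper1). An exact box was held by 2 genes of the contractile list and 0 of the pericyte list. A match is a description of letters and not of binding. Kcnj8 (chr6:142564837-142571614) and Abcc9 (chr6:142587862-142702315) are neighbours on the same strand, and Acta2 lies at chr19:34241090-34255590 and Myh11 at chr16:14194535-14291372.

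The 73 mural cells, summed, held many genes at far higher levels than the other cells of the ME. Of 1865 genes with at least 20 UMIs in the 73 cells, 289 (15.5%) were at least 4-fold higher there than in the other 5909 cells and 25 (1.34%) at least 4-fold lower, with a pseudocount of 10 CPM. For the 97 cells as chosen, 261 of 3188 genes (8.19%) were higher and 34 (1.07%) lower. Outside the rule genes the ratio was largest for Tpm2, which encodes the beta tropomyosin of muscle, at 4006 CPM against 10.4 CPM in the 5885 cells that the rule did not choose. Next came Myl9, the regulatory light chain of smooth muscle myosin, at 8345 CPM against 35.2 CPM. All 17 pericyte genes with enough UMIs and 20 of 22 contractile genes passed 4-fold, with median log2 ratios of 4.82 and 5.02 against 0.19 over all 1865 genes. The 4 rule genes, counted in these lists, had to. A gene could pass through 1 class alone. Read in each class on its own, 147 of the 289 were at least 4-fold higher in both, 105 in Acta2/Myh11 cells only and 37 in Kcnj8/Abcc9 cells only, and 37 of the 289 had no UMI in Kcnj8/Abcc9 cells.

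Igfbp7, Aspn, Gja4, Notch3 and Epas1 were among the 147 genes. Igfbp7, a secreted protein of vessel walls that binds insulin-like growth factors, had a UMI in all 73 cells, with 6 to 53 UMIs per cell (median 19) in Acta2/Myh11 cells and 6 to 20 UMIs per cell (median 10) in Kcnj8/Abcc9 cells. Its level was 6194 CPM (5825 to 6581) in the first and 5345 CPM (4674 to 6086) in the second, which overlapped. Microglia, which should lack Igfbp7, held 6.76 CPM, with a UMI in 11 of 526 cells. It was not particular to mural cells among the cells of the vessel. A UMI was found in 78 of 79 endothelial cells (median 8 per cell) and 260 of 277 Dcn cells (median 6). Aspn, a small leucine-rich proteoglycan of the matrix, was read at 1312 against 985 CPM, and Gja4, the connexin 37 of gap junctions, at 621 against 679.8 CPM. The intervals of both overlapped as well, as did those of Notch3, the Notch receptor of mural cells (236 against 375 CPM), and of the hypoxia-inducible factor gene Epas1 (485 against 516 CPM).

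The split between the 2 classes was read over 1765 genes with at least 20 UMIs, a filter that a gene found in 1 class can pass through that class alone. At least 2-fold higher were 302 genes (17.1%) in Acta2/Myh11 cells and 255 (14.4%) in Kcnj8/Abcc9 cells. Of these, 160 (9.07%) and 141 (7.99%) also had Poisson intervals that did not overlap, and "higher" is written below of such genes. The same 2 shares are the background for the counts per list given below. With the classes as chosen, 575 of 2814 genes (20.4%) and 341 (12.1%) passed 2-fold, and 232 (8.24%) and 184 (6.54%) did so with intervals apart. The median log2 ratio over all 1765 genes was 0.01. Where a gene gave 1 UMI in the Kcnj8/Abcc9 cells (23.4 CPM), its interval there reached 131 CPM, and where it gave 2 (46.9 CPM), 169 CPM.

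The contractile apparatus marked the Acta2/Myh11 cells. Of 25 contractile genes 22 had enough UMIs, and of these 19 were higher there, 0 were higher in Kcnj8/Abcc9 cells, and the median log2 ratio was 3.74. Acta2, Tagln and Myh11 are in this count and were used to choose the cells. Acta2 ran from 6 to 167 UMIs per cell (median 57) in the 47 cells, at 16521 CPM (15914 to 17145), and gave 3 UMIs in 1 of the 21 Kcnj8/Abcc9 cells. For background, a UMI of Acta2 was found in 9 of 526 microglia (1.71%), whose median depth was 3099.5 UMIs against 3516 in Acta2/Myh11 cells and 1802 in Kcnj8/Abcc9 cells.

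Outside the rule, Myl9 was found in every mural cell, with 6 to 78 UMIs per cell (median 33) in Acta2/Myh11 cells and 2 to 16 UMIs per cell (median 6) in Kcnj8/Abcc9 cells. The levels were 9818 CPM (9351 to 10302) and 3305 CPM (2782 to 3898), or 2.97-fold apart. Tpm2 gave 2 to 52 UMIs per cell (median 15) against 0 to 3 UMIs per cell (median 0), and its level was 27.6-fold higher at 5178 against 188 CPM. Crip1, which encodes a small LIM-domain protein, gave 16 to 137 UMIs per cell (median 57) against 0 to 9 UMIs per cell (median 1), and the classes did not overlap. Its level was 14.8-fold higher at 16692 against 1125 CPM. Mustn1, a small nuclear protein of the musculoskeletal system, gave 0 to 23 UMIs per cell (median 6) in 46 of 47 cells and no UMI in the 21 Kcnj8/Abcc9 cells, and was at least 29.7-fold higher when 3 counts stand for 0. Folds written with "at least" take the level of the higher class as read, so its counting error is not in them.

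Genes of the calcium cycle and the filaments were split in the same way. Pln encodes phospholamban, the inhibitor of the calcium pump of the sarcoplasmic reticulum, and was found in 44 of 47 Acta2/Myh11 cells at 1300.4 CPM (1134 to 1484) and in 0 of 21 Kcnj8/Abcc9 cells (at least 18.5-fold higher). The pump gene Atp2a2 was read at 319 against 46.9 CPM, with 2 UMIs in the Kcnj8/Abcc9 cells. Kcna5, a voltage-gated potassium channel, had 319 CPM against no UMI (at least 4.54-fold higher). Mylk, the kinase that turns on smooth muscle myosin, was read at 1809 against 164 CPM, and Lmod1, which nucleates actin filaments in smooth muscle, at 757 against 23.4 CPM. Des, the intermediate filament desmin, had 56 UMIs in 28 Acta2/Myh11 cells and 0 in Kcnj8/Abcc9 cells (at least 4.71-fold). After thinning to 1000 UMIs per cell, a UMI was found in 57.4% against 0% of cells for Pln and 100% against 14.3% for Tpm2. Cnn1, calponin, had 39 UMIs in 15 of 47 cells and 0 in the 21. Not split were Cald1, caldesmon (2187 against 3118 CPM), and Ppp1r14a, the inhibitor of myosin phosphatase (851 against 563 CPM).

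The Kcnj8/Abcc9 cells carried the pericyte genes. Of 20 in the list 17 had enough UMIs, and of these 12 were higher there and 1, the adhesion receptor Mcam, was higher in Acta2/Myh11 cells, with a median log2 ratio of -2.17. Rgs5, Kcnj8 and Abcc9 are in this count and chose the cells or the classes. Kcnj8 gave 0 to 8 UMIs per cell (median 3) at 1711 CPM (1341 to 2152), and Abcc9 gave 0 to 8 UMIs per cell (median 1) at 539 CPM (342 to 809). Neither had a UMI in any of the 47 Acta2/Myh11 cells, although the class limit would have let 1 pass. Rgs5 was present in both classes, with 5 to 51 UMIs per cell (median 9) in Kcnj8/Abcc9 cells and 0 to 50 UMIs per cell (median 3) in Acta2/Myh11 cells, where 35 of 47 cells held it. Its level was 3.46-fold higher in the first, at 6939 CPM against 2004 CPM. In microglia, 4 of 526 cells held an Rgs5 UMI.

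Vtn, which encodes vitronectin, gave 0 to 93 UMIs per cell (median 31) in Kcnj8/Abcc9 cells and 0 to 14 UMIs per cell (median 1) in Acta2/Myh11 cells. The levels of 18308 CPM (17047 to 19639) and 573 CPM (465 to 699) were 31.9-fold apart, while 17 of 526 microglia held a UMI. Ptn, the secreted growth factor pleiotrophin, gave 0 to 43 UMIs per cell (median 25) in 20 of 21 cells and was 61.4-fold higher, at 13057 CPM against 213 CPM. Ptn was widespread in the tissue, since 96 of 526 microglia held a UMI and endothelial cells were at 2612 CPM. Higd1b, Ndufa4l2 and Cox4i2, which encode mitochondrial proteins linked to low oxygen, were 4.94-fold, 3.74-fold and 2.24-fold higher in Kcnj8/Abcc9 cells. The paralogue of Ndufa4l2, Ndufa4, a subunit of cytochrome oxidase, went the other way, at 745 against 46.9 CPM. Pdgfrb, the receptor that recruits pericytes to vessels, was read at 914 CPM (650.1 to 1249.8) in Kcnj8/Abcc9 cells and 195 CPM (134 to 274) in Acta2/Myh11 cells. The intervals overlapped for Cspg4, the NG2 proteoglycan, and for the sphingosine 1-phosphate receptor S1pr3.

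**Figure D3:**
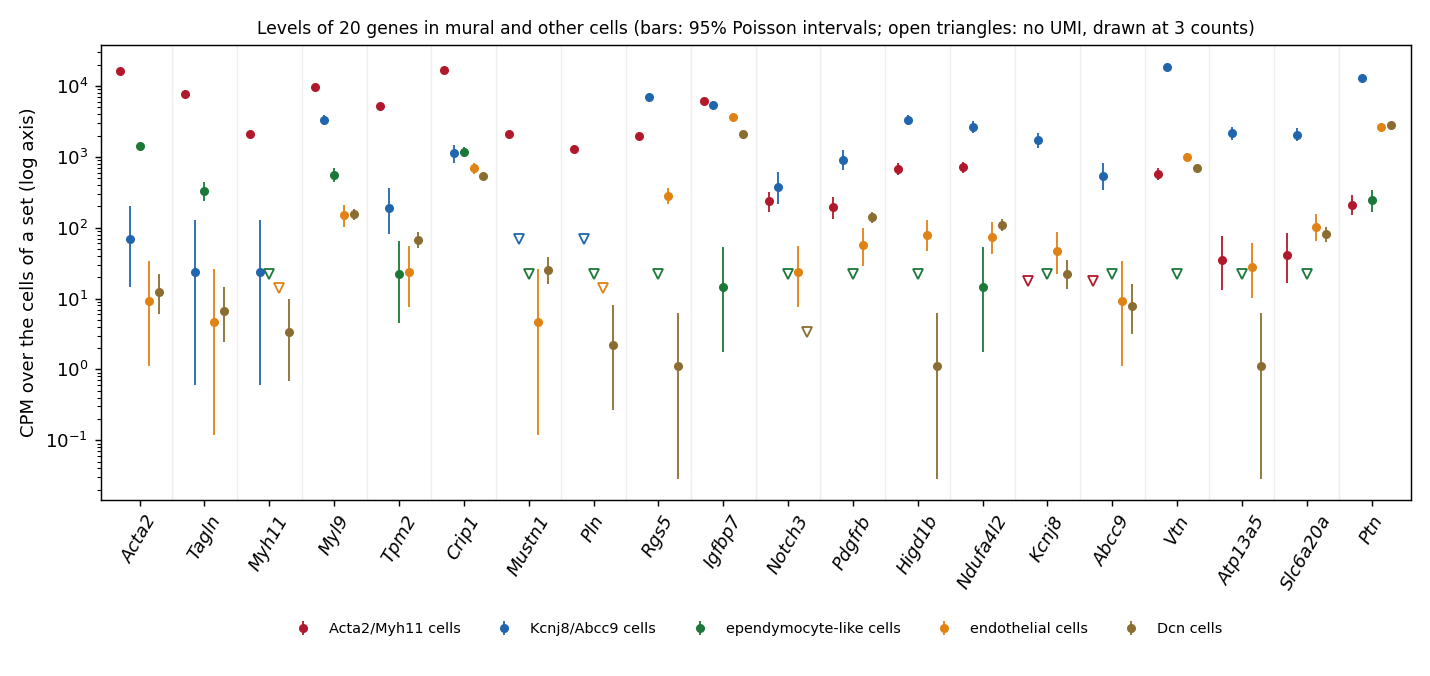
Levels of 20 genes in CPM (log axis) over the cells of each set, as points with 95% Poisson intervals; open triangles mark a set with no UMI and stand at 3 counts. Myl9 lies at 9818 CPM in Acta2/Myh11 cells and 3305 CPM in Kcnj8/Abcc9 cells, and Vtn at 573 CPM and 18308 CPM.

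Carriers and enzymes of the cell surface were the next group on the Kcnj8/Abcc9 side. Of 26 genes in a list of solute transport, which also holds the matrix protein gene Vtn, 8 had enough UMIs. Of these, Vtn and 5 others were higher in Kcnj8/Abcc9 cells and 0 in Acta2/Myh11 cells. Atp13a5, a P-type ATPase, was found in 19 of 21 and 2 of 47 cells (85.7% and 2.13% after thinning), at 2157 CPM against 35.5 CPM. Slc6a20a, a carrier of proline and other imino acids, was found in 19 of 21 and 5 of 47 cells and was 49.9-fold higher. Slc22a8, an organic anion transporter, had 22 UMIs in Kcnj8/Abcc9 cells and 0 in Acta2/Myh11 cells (at least 29.1-fold higher). Car4, the membrane-bound carbonic anhydrase, was 25.6-fold higher, but endothelial cells also held 2438 CPM of it. The aminopeptidase Enpep, which acts on angiotensin II, was read at 469 CPM against 70.9 CPM.

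Receptors for vasoactive signals were thinly sampled, and 9 of 40 had enough UMIs. Ramp1, the partner of the receptor for calcitonin gene-related peptide, and Npy1r, a receptor of neuropeptide Y, were higher in Acta2/Myh11 cells, at 207 against 0 CPM and 278 against 46.9 CPM. Npy1r rested on 2 UMIs in Kcnj8/Abcc9 cells. Higher in Kcnj8/Abcc9 cells were the thromboxane receptor Tbxa2r (10.2-fold), the G protein-coupled estrogen receptor Gper1 (6.84-fold), the UDP-glucose receptor P2ry14 (6.46-fold) and Gucy1b1, a subunit of the nitric oxide receptor (2.81-fold). The other subunit, Gucy1a1, and the endothelin receptor Ednra had overlapping intervals, at 579 against 516 CPM and 159.6 against 234 CPM. Of the receptors for hormones of energy balance, Lepr had 0 UMIs in both classes and Insr 1 and 2, which is too few to read at this depth.

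Among 13 of 38 genes of the PDGF, Notch, angiopoietin and TGF-beta pathways that had enough UMIs, 5 were higher in Acta2/Myh11 cells and 4 in Kcnj8/Abcc9 cells. The ligands Pdgfa (337 against 23.4 CPM) and Jag1 (289.6 against 46.9 CPM) and the inhibitors of differentiation Id1 and Id3 (260.1 against 23.4 CPM and 674 against 46.9 CPM) were on the first side. Pdgfrb, the Notch target Heyl (171 against 492 CPM), the chemokine Cxcl12 (53.2 against 399 CPM) and Angptl4, an inhibitor of lipoprotein lipase (88.7 against 539 CPM), were on the second.

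The matrix genes divided as well, with 17 of 41 having enough UMIs, 4 higher in Acta2/Myh11 cells and 6 higher in Kcnj8/Abcc9 cells. Eln, the elastin of arterial walls, had 30 UMIs against 0, and Timp3, an inhibitor of matrix proteases, was read at 591 against 234 CPM. The basement membrane genes Nid1 (29.6 against 469 CPM), Lamc1 (59.1 against 305 CPM) and Col4a1 (118 against 539 CPM) were higher in Kcnj8/Abcc9 cells. So were Mgp, which keeps vessel walls from calcifying (875 against 2766 CPM), and the proteoglycan Bgn (213 against 563 CPM). Of 34 transcription factors 10 had enough UMIs, of which Klf2 was higher in Acta2/Myh11 cells, Zic1 and Heyl were higher in Kcnj8/Abcc9 cells, and the intervals of Ebf1, Nr2f2 and Foxs1 overlapped. Over all 1765 genes the shares were 9.07% and 7.99%, and counts this small do not set the list apart from them. Klf2 gave 2, 2, 68 and 28 UMIs in the Acta2/Myh11 cells of barcode numbers 1 to 4 and none in Kcnj8/Abcc9 cells. Numbers 3 and 4 held 1 Kcnj8/Abcc9 cell each, and the part of the barcode number in the Klf2 difference was not tested. Endothelial cells held 1937 to 3080 CPM of Klf2 in the 4 numbers.

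Immediate early genes, which respond to stimuli within minutes, gave 12 of 21 with enough UMIs, 7 of them higher in Acta2/Myh11 cells and 0 in Kcnj8/Abcc9 cells. Fos had 189 UMIs in 16 of 47 cells, from 0 to 37 per cell with a median of 0, and no UMI in the 21 Kcnj8/Abcc9 cells. In the Acta2/Myh11 cells of barcode numbers 1 to 4 its level was 807, 392, 1602 and 1045 CPM, and it was found in 2 of 10, 1 of 4, 6 of 16 and 7 of 17 cells. Endothelial cells held 77.0, 24.2, 61.2 and 943 CPM in the same order. Within number 1 alone Fos and Junb kept their direction (807 against 0 CPM and 452 against 0 CPM), Btg2 was at 291 against 293 CPM, Klf2 had 2 UMIs against 0 and Ccn1 had none in either class. The part of the barcode number in these values was not tested.

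The barcode numbers were shared unevenly between the classes. Numbers 1 to 4 held 10, 4, 16 and 17 Acta2/Myh11 cells and 10, 9, 1 and 1 Kcnj8/Abcc9 cells, as the plot of cells by barcode number shows. Depth moved with this. Of the 21 Kcnj8/Abcc9 cells 14 held under 2000 UMIs, and cells under 2000 UMIs numbered 95 and 142 in numbers 1 and 2 but 33 and 34 in numbers 3 and 4. The shallowest cell in the matrix held 1628, 1533, 1769 and 1801 UMIs in numbers 1 to 4. Kcnj8/Abcc9 cells had a median of 1802 UMIs, so numbers 3 and 4 held no cells at the lower depths of this class. The part of depth in the class sizes was not tested, and the conditions behind the numbers are not given in the sources used here.

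**Figure D4:**
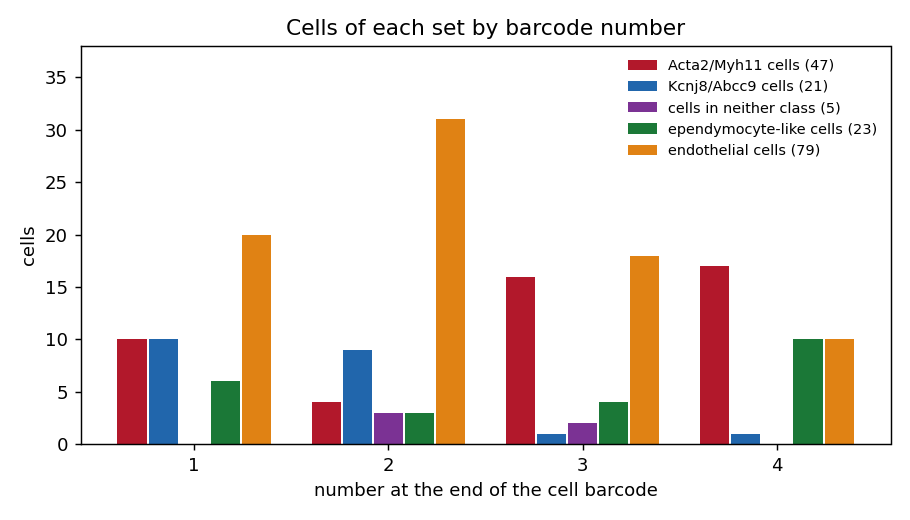
Cells of each set (vertical axis) by the number at the end of the cell barcode (horizontal axis). Acta2/Myh11 cells number 10, 4, 16 and 17 and Kcnj8/Abcc9 cells 10, 9, 1 and 1.

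Number 1, with 10 cells of each class, allowed the split to be read within 1 barcode number. Of the 160 genes higher in Acta2/Myh11 cells, 157 had the same sign there and 138 passed 2-fold. Of the 141 on the other side, 141 had the same sign and 117 passed 2-fold. These cells are among those that gave the 160 and 141 genes, so this is not an independent count. Within number 1, Tpm2 was at 4812 against 147 CPM, Myl9 at 10593 against 3326 CPM, Vtn at 1292 against 18144 CPM and Ptn at 291 against 11395 CPM, and Igfbp7 at 6265 against 5673 CPM.

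The 47 Acta2/Myh11 cells varied among themselves. They were ordered by the share of Acta2, Tagln and Myh11 among their UMIs and divided into 16, 16 and 15 cells, which held up to 49.5, 30.2 and 19.4 UMIs of these genes per 1000. Rgs5 was higher where that share was lower, at 426 (281 to 619), 1233 (959 to 1560.4) and 4880.4 (4286 to 5534) CPM from the highest to the lowest group, and was found in 9, 12 and 14 cells with medians of 1, 3 and 12 UMIs. Higd1b (473, 447 and 1185 CPM), Ndufa4l2 (252, 858 and 1145 CPM), Vtn (284, 411 and 1125 CPM) and Ptn (78.8, 71.5 and 542 CPM) were also highest in the last group. Kcnj8 and Abcc9 had 0 UMIs in all 3 groups. Vtn had medians of 0, 1 and 1 UMIs per cell and Ptn of 0 in each group, and in the last group 2 cells held 28 of 56 Vtn UMIs and 2 cells held 16 of 27 Ptn UMIs. The pair of cells was not the same for the 2 genes. With its own pair left out, Vtn was at 609 CPM in the last group and Ptn at 266 CPM, against 1125 CPM and 542 CPM with all cells.

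Some contractile genes that were not used for the order followed it, and others did not. Tpm2 was at 7536 (6875 to 8243), 4825 (4266 to 5436) and 2571 (2145 to 3057) CPM and Myl9 at 12754, 10114 and 5744 CPM. Cnn1 was concentrated in the first group, with 441, 125 and 80.3 CPM, and 28 of its 39 UMIs. No steady fall was seen for Sncg (757, 447 and 763 CPM), Map3k7cl (520, 625 and 562 CPM) and Des (363, 465 and 141 CPM), which are in the same list. The intervals of Notch3 (205, 232 and 281 CPM) and Pdgfrb (173, 143 and 281 CPM) overlapped between the groups. The groups held 4, 0, 5 and 7, then 3, 1, 7 and 5, then 3, 3, 4 and 5 cells of barcode numbers 1 to 4, and median depths of 3687.5, 3397 and 3077 UMIs.

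**Figure D5:**
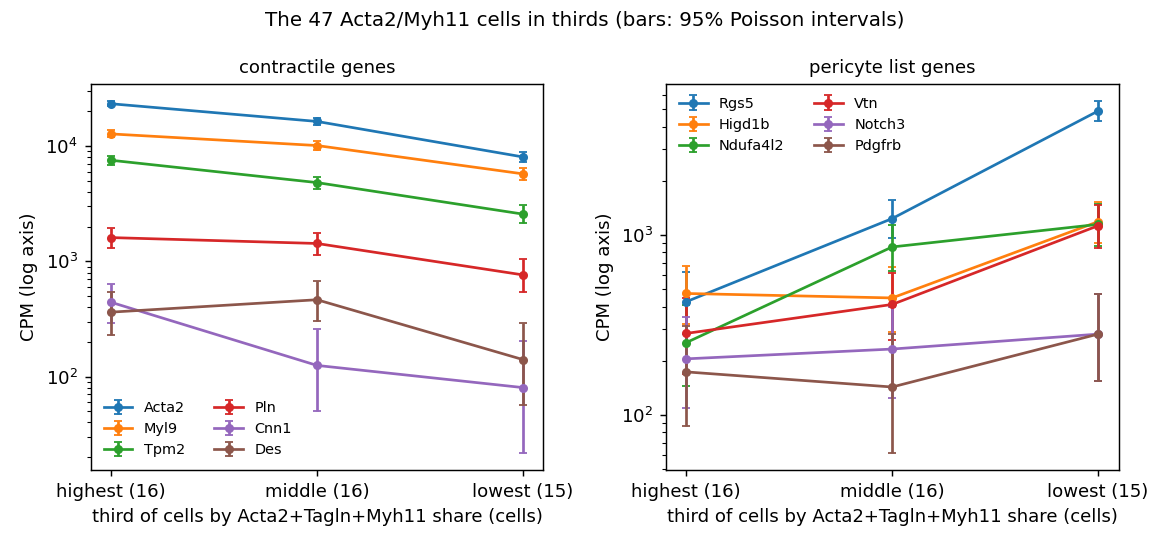
Levels in CPM (log axis) of contractile and of pericyte genes in the 47 Acta2/Myh11 cells, in groups of 16, 16 and 15 cells by their share of Acta2, Tagln and Myh11 (horizontal axis, highest to lowest), with 95% Poisson intervals. Rgs5 climbs from 426 to 4880.4 CPM while Tpm2 drops from 7536 to 2571 CPM.

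The mural cells were then set against their neighbours in the vessel. Of 3685 genes, 244 (6.62%) were at least 4-fold higher in the 73 mural cells than in the 79 endothelial cells and 308 (8.36%) were at least 4-fold lower. All 17 pericyte genes and 19 of 22 contractile genes were on the first side. Olfr558, an odorant receptor gene, was read at 361 CPM and had no UMI in endothelial cells. For the 97 cells as chosen the counts were 410 of 4803 genes (8.54%) and 298 (6.2%). On the other side stood Cldn5, the claudin of endothelial tight junctions (4.52 CPM against 5744 CPM), and Pglyrp1, a peptidoglycan recognition protein with no UMI in mural cells and 2705 CPM in endothelial cells. Some pericyte transcripts were found in endothelial cells, with 210 UMIs of Vtn in 7 of 79 cells and 60 of Rgs5 in 18.

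Against the 277 Dcn cells, 229 of 6898 genes (3.32%) were at least 4-fold higher in mural cells and 359 (5.2%) lower. For the 97 cells they were 371 of 7640 (4.86%) and 271 (3.55%). Higd1b was read at 1273 CPM against 1.12 CPM, Rgs4, a regulator of G protein signaling, at 1526 CPM against 4.47 CPM, and Car4 had no UMI in the Dcn cells. Lum, a collagen-binding proteoglycan, and Inmt, a methyltransferase, had none in mural cells and 2474 CPM and 1281 CPM in Dcn cells. Pdgfrb, often used to mark pericytes, was found in 92 of 277 Dcn cells as well as in 43 of 73 mural cells, at 141 CPM and 361 CPM and median depths of 2922 and 2984 UMIs. Notch3 had no UMI in the 277 Dcn cells and was found in 40 of 73 mural cells.

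The 23 ependymocyte-like cells were also compared with 256 other ependymocytes, which held at least 30 UMIs of the ependymocyte genes but missed the rule. They were admitted by Acta2 and Tagln, and the other ependymocytes held 0 to 4 UMIs of it, with a UMI in 69 of 256 cells. Of 8283 genes, 195 (2.35%) were at least 2-fold higher in the 23 cells and 527 (6.36%) lower, and 65 (0.785%) and 54 (0.652%) had intervals apart. Higher were the contractile genes Myl9 (554 CPM against 181 CPM) and Cald1 (473 CPM against 231 CPM), and Sncg, gamma-synuclein (576 CPM against 178 CPM). Lower were the glutamate transporter Slc1a2 (29.5 CPM against 187 CPM) and the protease inhibitor Cst3 (3663 CPM against 11819 CPM), both strongly expressed in astrocytes. The list of astrocyte genes without Agt had a median of 13 UMIs per cell in both sets, and reached 40 and 91. The rule's limits on Agt and other genes bound the 23 cells only, and Agt reached 12 UMIs in the 256. The part of these limits in the lower genes was not tested. The median depths were 5743 and 4929.5 UMIs.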

How the data were processed

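Cells of the mouse ME were profiled by 3′ single-cell RNA sequencing in 4 libraries. The authors mapped the reads to mm10 with Cell Ranger 2.0, per the submitters' processing notes, and deposited 1 matrix of UMI counts (27998 genes by 5982 cells, 29288898 UMIs, 1533 to 25054 per cell), with no normalization. Its 32 sample records and its barcode numbers could not be matched, so all cells were treated as 1 sample and no test was run. Counts were summed per set of cells and divided by the set's UMIs to give CPM. Poisson and Clopper-Pearson intervals were exact, ratios used a pseudocount of 10 CPM, and genes needed 20 UMIs. A set with no UMI was read as 3 counts, and folds over it leave out the counting error of the higher set. No doublet caller was run. Chosen cells with at least 30 UMIs of ependymocyte genes, or 20 of another type, were set apart by limits chosen after seeing the data. The members and gene lists were chosen with earlier results of these data known. Genes named were list members, or those with the largest ratios (20 against all other cells, 15 each way between classes, 8 each way against endothelial or Dcn cells) with at least 50 UMIs, or 30 between classes, and a UMI in 30% of the cells. Coordinates follow GENCODE vM21 (27645 genes matched) and promoters RefSeq GRCm38.p6. The alternatives were other pseudocounts, filters, rule limits and thinning to 1000 UMIs per cell, leaving out each barcode number, number 1 alone and intervals apart. Scripts were tested on simulated data and used Python 3.11.15, numpy 2.4.6, scipy 1.17.1, pandas 2.3.3 and matplotlib 3.10.9.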

Additional observations from a re-analysis of the deposited data

How the results depend on the processing

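No paired analysis was possible because the barcode numbers were tied to no sample record and each condition was 1 pool. The chosen cells made up 1.62% of all cells, 2.06% with a limit of 3 UMIs and 1.22% with a limit of 10. The share was 1.22% without the 24 cells of other types and 1.54% to 1.72% with each barcode number left out. With cells thinned to 1000 UMIs it was 3.31%, or 198 cells. Thinning only removes UMIs, and the unthinned rule took 104 cells even with no limits on other genes. The limit on the rule genes must therefore have been lower for the thinned cells, and its value is not given. The 3.31% cannot be read as an effect of depth alone. Acta2/Myh11 cells were 66.0% of the 97, 47.4% after thinning, 78.1% with a limit of 10 and 58.0% to 74.0% with a number left out. Kcnj8/Abcc9 cells were 22.7%, 14.4% after thinning, 15.1% with a limit of 10 and 15.6% to 30.4% with a number left out.

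Counts of genes moved with the settings. Filters and choices of cells also changed the number of genes read, so a lower count need not be a lower share. With a pseudocount of 50 CPM, 82 genes in place of 261 were higher than in all other cells, 224 in place of 341 were higher in Kcnj8/Abcc9 cells, 100 and 141 in place of 410 and 298 split from endothelial cells, 111 and 85 in place of 371 and 271 from Dcn cells, and 10 and 18 in place of 195 and 527 between ependymocyte-like and other ependymocytes. With at least 50 UMIs per gene these were 154 of 1216 genes against all others (261 of 3188 as fixed), and 222 and 86 of 1032 between the classes (575 and 341 of 2814 as fixed). They were 195 and 165 of 2081 against endothelial cells, 205 of 4121 on the mural side against Dcn cells, and 70 and 204 of 4807 for the ependymocytes. With at least 5 UMIs the classes gave 2140 and 1217 of 7859 genes and the ependymocytes 383 and 796 of 12138. Without the cells of other types 302 of 1765 genes were higher in Acta2/Myh11 cells, 244 of 3685 against endothelial and 229 of 6898 against Dcn cells. Number 1 alone gave 153 and 82 of 600 genes between the classes, and intervals apart 232 and 184 of 2814. Leaving out a number gave 343 (of 1767 genes, without number 4) to 623 (of 2274) and 224 (of 1767, without number 4) to 325 (of 2274) between the classes, 189 to 317 (without number 4) and 522 to 899 (without number 4) for the ependymocytes, 227 to 252 against all others, 306 to 371 and 246 to 271 against endothelial cells, and 291 to 351 and 285 to 294 against Dcn cells. The cause was not tested. Of 96 values for 12 named genes under the 8 alternatives that can move a gene's ratio, 83 stayed within the counting interval, 13 moved and 0 changed sign. Depth limits the receptors and transcription factors, most of which had under 20 UMIs.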

Other observations

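Other genes were split between the 47 Acta2/Myh11 cells and the 21 Kcnj8/Abcc9 cells without belonging to the groups above. Sorbs2, an adaptor of actin stress fibres (692 CPM against no UMI, at least 9.83-fold), Ccnd2, cyclin D2 (662 CPM against no UMI, at least 9.41-fold), and Csrp1, a LIM-domain protein of smooth muscle (1862 against 23.4 CPM), were higher in the first. Ifitm1, an interferon-induced membrane protein (27.8-fold), Gatm, the first enzyme of creatine synthesis (94.6 against 1735 CPM), and Sod3, the extracellular superoxide dismutase (88.7 against 914 CPM), were higher in the second. Of 9 heat shock genes with at least 20 UMIs, Hspb1 (792 against 234 CPM) and Cryab were higher in Acta2/Myh11 cells. The heat shock gene Hspa2 went the other way, at 148 CPM in Acta2/Myh11 cells against 1360 CPM in Kcnj8/Abcc9 cells. Of 14 clock genes 1 had enough UMIs, the output gene Dbp, at 35.5 against 586 CPM. Of 5 metabolic genes with enough UMIs, the binding proteins of insulin-like growth factors Igfbp5 (225 CPM against no UMI) and Igfbp4 (260.1 against 46.9 CPM) were higher in Acta2/Myh11 cells and Angptl4 in Kcnj8/Abcc9 cells.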
